A study of Homo sapiens with 33 samples.

Results

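The semaphorin, ephrin, SLIT and netrin guidance genes are the protein-coding genes of 4 ligand families and of the neuropilin, plexin, Eph, ROBO, UNC5 and DCC receptors that read them. Members were taken by gene symbol alone from the protein-coding rows of the count table, and the rule used no measured value. The families were chosen with earlier results of these data known. The symbols matched 69 genes among 19951 protein-coding genes and 58735 genes of all kinds. Of these, 35 encode ligands and 34 encode receptors. The ligands comprise 20 semaphorins, 8 ephrins, 3 SLITs and 4 netrins. The receptors comprise 2 neuropilins, 9 plexins, 14 Eph receptors, 4 ROBO receptors, 4 UNC5 receptors and DCC.

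Guidance ligands tell a neighbouring or migrating cell to approach or to withdraw. Secreted class 3 semaphorins bind a neuropilin that partners an A-type plexin, whereas most other semaphorins bind plexins directly. Ephrins stay on the cell surface, so Eph signalling needs contact and runs into both cells. SLITs repel through ROBO receptors, and netrins attract through DCC or repel through UNC5 receptors. These systems were first described in axons, and they also sort cells at tissue boundaries, pattern vessels and, in the case of SLIT2 and ROBO2, restrict where the ureteric bud grows out of the nephric duct.

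All 33 libraries came from clone 24 of H9-DDdCas9VP192-FOXL2, a single clone of the H9 human embryonic stem cell line that carries a conditionally stabilised, catalytically inactive Cas9 activator and guides for the FOXL2 promoter. The cells were taken through a 14-day gonadal differentiation by intermediate mesoderm, and the day 4 group was sampled before induction. From day 4 the IND groups received doxycycline and trimethoprim in the intermediate mesoderm medium, and the CTRL groups received neither. IND and CTRL were sampled on 5 days, namely days 6, 8, 10, 12 and 14, with 3 technical replicates per group from 1 biological replicate. The p-values therefore measure only the spread between wells of 1 differentiation. No group received doxycycline and trimethoprim without FOXL2 activation, so effects of these compounds and of FOXL2 cannot be told apart.

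Each library held between 23940837 and 51912815 counts, with a median of 41420455. FOXL2, the targeted gene, lay between 50.5 and 195.7 FPKM (deposited fragments per gene, scaled to gene length and to library size) in the 15 IND libraries and at most 0.131 FPKM in the 18 CTRL and day 4 libraries. Replicate 2 of day 10 IND stood apart, with the fewest counts, 19254 detected genes against 28799 and 28848 in its replicates, and a summed level of pluripotency markers of 477 FPKM against 83.2 and 100.3 FPKM. The day 10 IND counts are therefore given with and without this library, and so are the day 10 values of members whose call it changed. In bulk RNA, fewer cells of a type and less RNA per cell cannot be told apart. The libraries did not keep strand, and over 20% of the exonic bases of 4 members (EFNA3, EFNB2, PLXNB3 and SEMA4G) are shared with another gene, so their counts are uncertain.

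FPKM is scaled to gene length, so levels can be compared between genes. Averaged over all libraries, 58 of the 69 members reached at least 1 FPKM and 22 reached at least 10 FPKM, with a median of 6.65 FPKM. The most abundant receptor was PLXNB2, a plexin for class 4 semaphorins, at 59.6 FPKM, and the most abundant ligand was EFNB3, a transmembrane ephrin, at 51.3 FPKM. EPHB4, the usual receptor of ephrin-B2, averaged 35.7 FPKM, and EFNB2 itself averaged 20.1 FPKM. SEMA6B, a transmembrane semaphorin, averaged 32.0 FPKM, SEMA4C 25.9 FPKM and SEMA3F, a secreted ligand of NRP2, 13.3 FPKM. The netrin receptor DCC averaged 0.561 FPKM against 16.4 FPKM for UNC5B, and the netrin NTN1 averaged 6.36 FPKM. No member stayed at the floor of 3 counts per library in every group. EPHA10 was at this floor at day 4 and in day 8 CTRL, EPHA5 in day 8 CTRL and ROBO4 at day 4.

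The question of how guidance genes moved as the cells differentiated without induction was addressed by comparing each CTRL group with day 4. By day 14 the levels of 38 of 68 tested members were higher and those of 8 were lower in CTRL. All 4 UNC5 receptors, DCC and ROBO1, ROBO2 and ROBO3 were among the 38, and ROBO4 was not tested at day 14. Of the other families 6 of 9 plexins, 5 of 8 ephrins and 3 of 4 netrins rose, where 24.6% of all tested genes did. The 8 lower members included NRP1, the ephrin receptors EPHA1, EPHA4 and EPHB1, and the semaphorins SEMA3E, SEMA3G, SEMA4A and SEMA5A.

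A gene was called when its adjusted p was under 0.05 in the quasi-likelihood test of edgeR, with p adjusted by the Benjamini-Hochberg method over every gene tested. The members called numbered 30 of 66 at day 6 (21.6% of all genes), 38 of 66 at day 8 (37.1%), 42 of 68 at day 10 (45.1%), and 46 of 68 at day 12 (48.1%) and again at day 14 (47.6%). Higher calls numbered 20, 29, 34, 38 and 38 on these days, against 11.0%, 18.1%, 23.1%, 24.4% and 24.6% of all genes. Lower calls numbered 10, 9, 8, 8 and 8, against 10.6%, 18.9%, 22.0%, 23.8% and 22.9% of all genes. At day 14 the median log2 fold change was 0.60 over the tested members and -0.00165 over all tested genes. The 5 comparisons share the day 4 libraries. Over them, 18 members were called higher at every day, 6 lower at every day and 18 on no day, and 3 (EFNB2, SEMA3D and SEMA7A) were called in both directions. The matching shares of all genes over the 5 comparisons together were not computed.

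**Figure D1:**
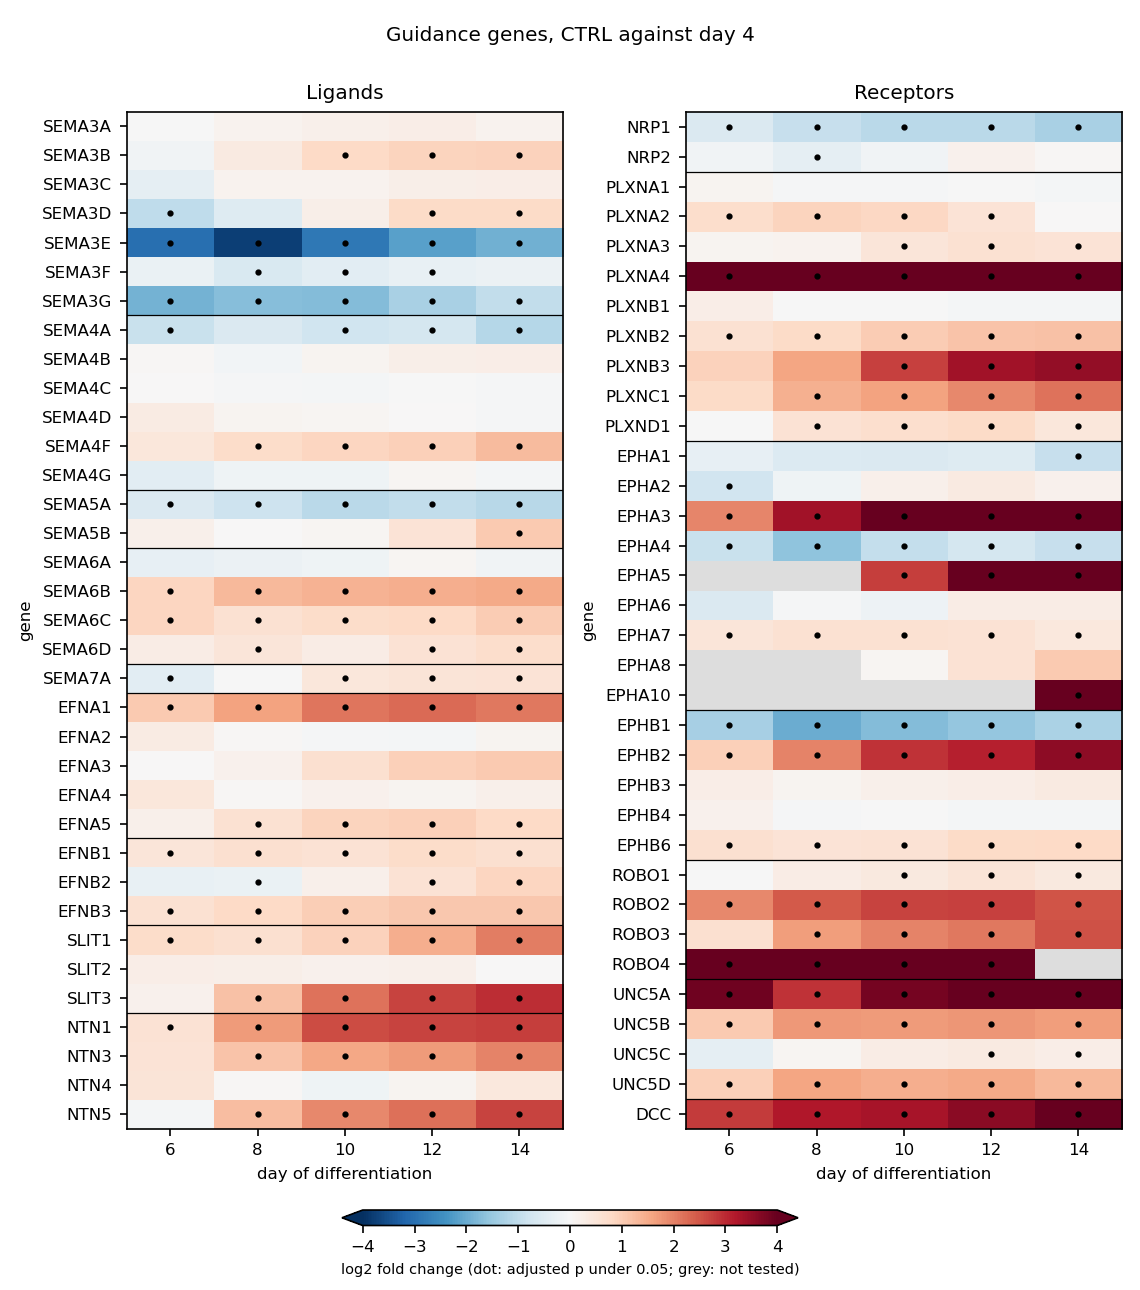
Log2 fold change of each guidance gene in CTRL against day 4 (colour), with days of differentiation across and genes down, ligands on the left and receptors on the right, and horizontal lines between families. Dots mark calls, and grey cells were not tested. Most calls are higher, up to 38 of 68 at days 12 and 14, whereas NRP1, SEMA3E, SEMA3G, SEMA5A, EPHA4 and EPHB1 are lower at all 5 days.

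PLXNA4, an A-type plexin that transmits class 3 semaphorin signals, had the largest rise among the members tested at day 14. Its level was 0.0132, 0.0336 and 0.0312 FPKM at day 4, from 6, 16 and 16 counts, and 2.62, 1.69 and 2.28 FPKM in day 14 CTRL (log2 fold change 6.35 ± 0.30 (SE), edgeR adjusted p = 1.17e-06). EPHA3, a receptor for ephrin-A ligands, went from 0.588, 0.361 and 0.378 FPKM to 9.35, 9.7 and 14.1 FPKM (log2 fold change 4.62 ± 0.25 (SE), edgeR adjusted p = 1.84e-06). Both groups were fully separated for each gene. EPHB2, a receptor for ephrin-B ligands, stood at 1.57, 1.76 and 1.59 FPKM and then at 17.7, 16.4 and 25.5 FPKM (log2 fold change 3.58 ± 0.18 (SE), edgeR adjusted p = 1.37e-06). The receptor EPHA5 held 6, 2 and 0 counts in the day 4 libraries and reached 0.629, 0.788 and 0.527 FPKM (log2 fold change 6.04 ± 0.59 (SE), edgeR adjusted p = 3.95e-05), so the size of its change rests on 8 counts. Among members whose log2 CPM averaged 1 or more, the next largest rises at day 14 were those of DCC, PLXNB3, SLIT3 and NTN1, with log2 fold changes of 4.31, 3.52, 2.95 and 2.77. UNC5A and EPHA10, below that level, had log2 fold changes of 4.89 and 4.54.

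SEMA3E, a secreted semaphorin that signals through PLXND1, was the member that fell most. Its level was 4.09, 5.08 and 3.17 FPKM at day 4, 0.308, 0.333 and 0.271 FPKM in day 8 CTRL (log2 fold change -3.75 ± 0.20 (SE), edgeR adjusted p = 5.1e-06) and 1.11, 0.882 and 1.35 FPKM in day 14 CTRL (log2 fold change -1.91 ± 0.22 (SE), edgeR adjusted p = 9.52e-05). Its receptor PLXND1 was called higher at days 8 to 14, with a log2 fold change of 0.75 at day 12 and 0.46 at day 14. NRP1, a co-receptor for class 3 semaphorins and VEGF, fell from 18, 19.6 and 18.7 FPKM to 8.83, 7.1 and 7.26 FPKM (log2 fold change -1.30 ± 0.11 (SE), edgeR adjusted p = 1.97e-05). SEMA5A, SEMA3G, SEMA4A, EPHB1, EPHA4 and EPHA1 had log2 fold changes of -1.10, -1.0, -1.13, -1.27, -0.91 and -0.91 at day 14. The call of EPHA1 was lost without day 4 replicate 2, day 14 CTRL replicate 1 or day 14 CTRL replicate 3 (edgeR adjusted p = 0.0502, 0.0536 and 0.0501).

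Marker genes of other cell types moved over the same days. The summed level of 10 neuron markers was between 7.68 and 25.5 FPKM at day 4, with NEUROD1 and POU4F1 at the floor, and between 130.1 and 225 FPKM in day 14 CTRL, where all 10 were called higher. The 6 neural crest and glia markers summed to 16.6 to 27.4 FPKM at day 4, with S100B at the floor, and to 116 to 199.7 FPKM in day 14 CTRL, with all 6 called higher. The 6 pluripotency markers went the other way, from 484 to 533 FPKM at day 4 to 31.4 to 42.0 FPKM in day 14 CTRL, with 4 of the 5 tested called lower and NANOG at the floor in both groups. The part of these cell types in the guidance gene values was not tested. Among 9 markers of coelomic epithelium and mesothelium, the epithelium that gives rise to gonads, LHX9, WT1 and NR5A1 were at the floor at day 4, and none was at the floor in CTRL from day 8 on. The 9 summed to 459 to 603 FPKM at day 4 and to a lower 321 to 452 FPKM in day 14 CTRL. Of the 8 tested there, 6 were called higher and 1 lower.

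The effect of FOXL2 induction was addressed by comparing IND with CTRL on each day. PLXNA4 was lower in IND on all 5 days, and EPHA3, EPHB2, SLIT2 and UNC5B were lower on 4 of them. NRP2, SEMA6D, SEMA3D, SEMA3A, SLIT3 and ROBO4 were the members called higher on more than 1 day besides EPHA6. Over the 5 days, 37 of the 69 members were called at least once, 17 of them higher and 22 lower, with PLXNA2 and UNC5A in both directions. A further 32 members were called on no day. With the day 10 fit that leaves out IND replicate 2, 42 members were called at least once, 19 higher and 26 lower, with NRP1 as well in both directions, and 27 on no day. The share of all genes called on at least 1 day was not computed, so neither count can be set against it. In that count UNC5B was lower on all 5 days, UNC5D on 4, and EPHB6, SEMA3G, SEMA4D and SEMA6A were also higher on more than 1 day. In each IND comparison with all libraries, the FPKM of the IND and CTRL libraries did not overlap for any called member. This separation is not independent of the call and adds no support to it.

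At day 6, 15 of 66 tested members were called, 5 higher and 10 lower, against 3.66% of all tested genes (1.29% higher and 2.37% lower). At day 8 the calls numbered 30 of 67, with 15 in each direction, against 14.2% of all genes (7.49% higher and 6.67% lower). The median absolute log2 fold change at day 8 was 0.39 over the tested members and 0.20 over all tested genes. At day 10, 6 of 68 members were called, 1 higher and 5 lower, against 2.03% of all genes (0.856% higher and 1.18% lower). Without day 10 IND replicate 2 the calls rose to 28, 12 higher and 16 lower, against 18.2% of all genes (8.74% higher and 9.51% lower). At day 12, 10 of 69 members were called, 1 higher and 9 lower, against 5.42% of all genes (2.38% higher and 3.04% lower). At day 14, 15 of 69 were called, 5 higher and 10 lower, against 8.43% of all genes (3.21% higher and 5.22% lower). Leaving out 1 library moved the counts to between 17 and 42 at day 8, where 18, 17 and 18 remained without CTRL replicate 1, CTRL replicate 3 or IND replicate 2. At day 12, leaving out IND replicate 1 gave 19 calls, CTRL replicate 1 or IND replicate 2 gave 6, and CTRL replicate 2 or 3 gave 4. At day 14 it was 23 without CTRL replicate 3.

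**Figure D2:**
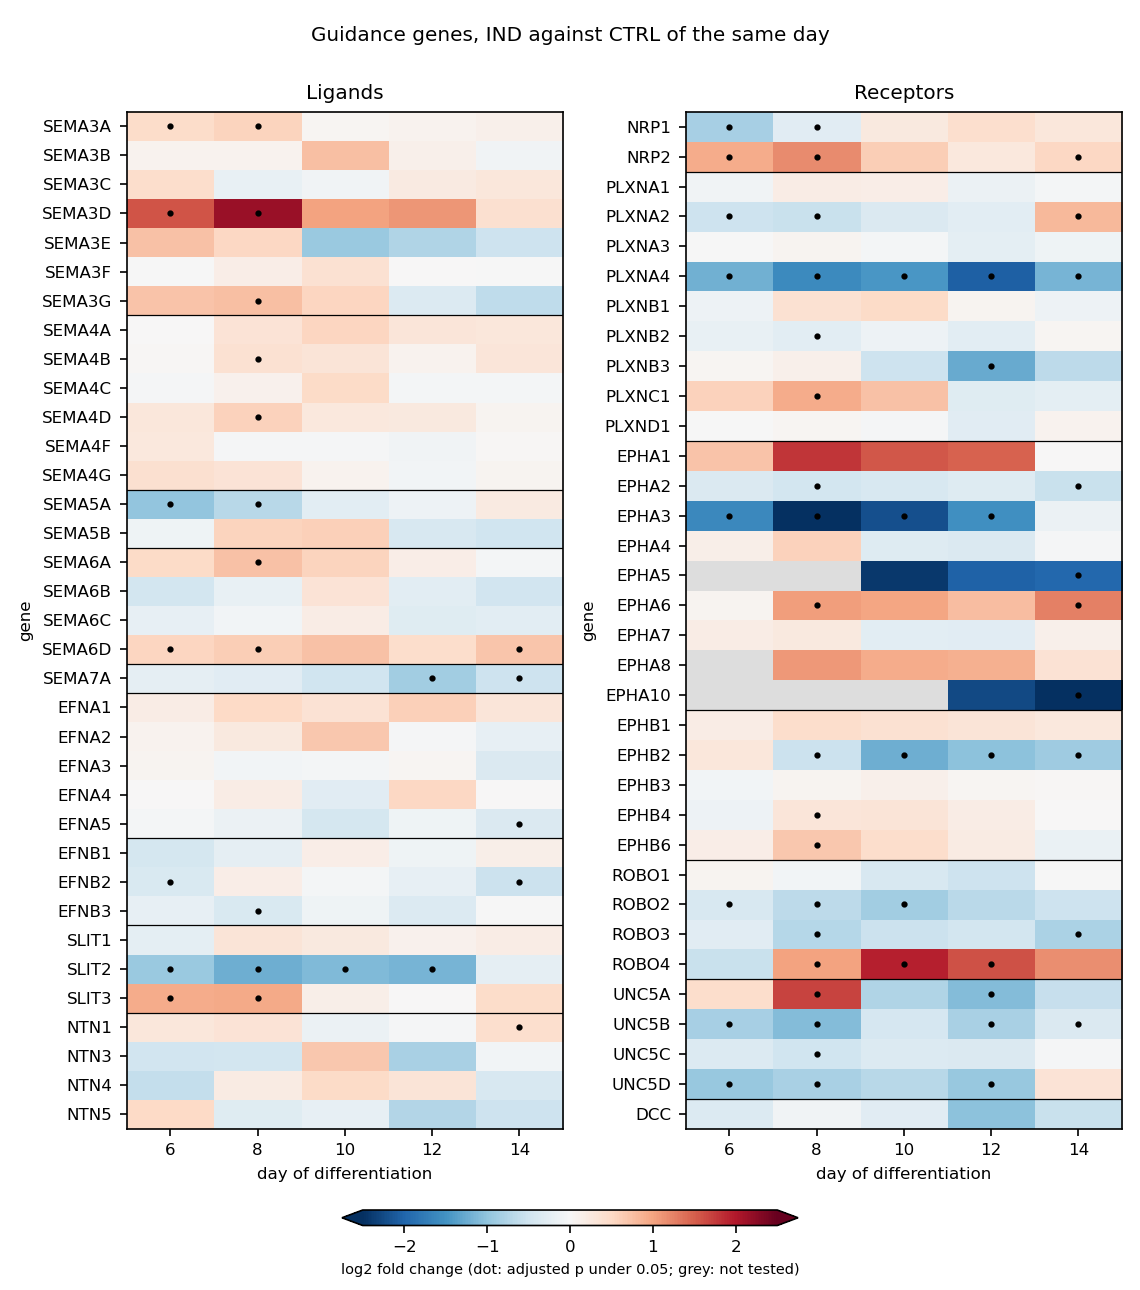
Log2 fold change of each guidance gene in IND against CTRL of the same day (colour), with days of differentiation across and genes down, ligands on the left and receptors on the right. Dots mark calls, and grey cells were not tested. Calls are most frequent at day 8 (30 of 67), PLXNA4 carries a dot on all 5 days, and the day 10 column includes the divergent replicate 2.

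Before the values, the sequences upstream of the members called lower on at least 4 IND days are shown, because they were called on the most days with all libraries and FOXL2 is a forkhead factor. They are the 250 bases before the RefSeq start (GRCh38.p14), 5′ to 3′ on the strand of the gene, and no window was held for UNC5B. Capitals mark a match to 1 of 4 forkhead-type motifs searched on both strands. The forms searched were TGTTTAC and its close variant TGTTTGC, and also TATTTAC and its close variant TATTTGC. None of them contains another. EPHA3 lies on the plus strand at chr3:89107371-89107620, EPHB2 on the plus strand at chr1:22710588-22710837, PLXNA4 on the minus strand at chr7:132576471-132576720 and SLIT2 on the plus strand at chr4:20251655-20251904. The PLXNA4 window lies inside the gene as annotated for the counts (chr7:132123332-132648688), so it precedes a RefSeq start internal to that gene. The EPHA3 window runs past the start annotated for the counts (chr3:89107524). The SLIT2 window ends well short of the start annotated for the counts (chr4:20253260).
EPHA3: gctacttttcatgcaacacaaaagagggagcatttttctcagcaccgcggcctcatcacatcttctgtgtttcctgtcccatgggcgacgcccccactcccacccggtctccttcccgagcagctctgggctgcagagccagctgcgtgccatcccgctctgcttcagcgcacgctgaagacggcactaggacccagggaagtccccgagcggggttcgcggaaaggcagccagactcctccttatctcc
EPHB2: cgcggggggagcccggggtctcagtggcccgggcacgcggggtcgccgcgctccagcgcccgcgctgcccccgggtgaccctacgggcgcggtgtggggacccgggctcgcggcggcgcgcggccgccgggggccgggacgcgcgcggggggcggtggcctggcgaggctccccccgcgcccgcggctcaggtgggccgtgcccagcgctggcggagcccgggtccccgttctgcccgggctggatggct
PLXNA4: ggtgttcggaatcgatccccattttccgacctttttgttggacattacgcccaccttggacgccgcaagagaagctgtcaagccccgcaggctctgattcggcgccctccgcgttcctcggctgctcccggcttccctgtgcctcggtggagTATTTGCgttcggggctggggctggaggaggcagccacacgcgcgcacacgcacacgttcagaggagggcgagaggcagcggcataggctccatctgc
SLIT2: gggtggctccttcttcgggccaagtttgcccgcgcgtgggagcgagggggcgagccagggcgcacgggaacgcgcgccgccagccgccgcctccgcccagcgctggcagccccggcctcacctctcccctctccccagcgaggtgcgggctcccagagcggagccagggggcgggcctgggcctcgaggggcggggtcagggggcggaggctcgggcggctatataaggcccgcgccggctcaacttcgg
The PLXNA4 window held 1 match, TATTTGC on the strand of the gene, beginning 98 bases before this internal start, and the other 3 windows held none. Over all RefSeq windows of the same length, 3708 of 35116 (10.6%) held at least 1 match, and 5 of the 91 windows that 59 members had did so (PLXNA4, PLXNB1, SEMA3C and SEMA4B, with more than 1 window for some genes). The windows of EPHA3, EPHB2, PLXNA4 and SLIT2 had a GC content of 61.2%, 84.8%, 63.6% and 77.2%, against 57.2% over all windows. The part of GC content in these match counts was not tested. A match describes letters in this window only and says nothing of binding.

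Among the SLIT ligands, SLIT2 was lower and SLIT3 was higher in IND at days 6 and 8. SLIT2 (chr4:20253260-20620561), a secreted repellent, stood at 8.2, 8.06 and 10.6 FPKM in day 6 CTRL and 5.31, 3.86 and 4.85 FPKM in day 6 IND (log2 fold change -0.93 ± 0.13 (SE), edgeR adjusted p = 0.000674). At day 8 it measured 9.56, 6.93 and 10.0 FPKM in CTRL and 3.95, 3.98 and 3.44 FPKM in IND (log2 fold change -1.22 ± 0.14 (SE), edgeR adjusted p = 0.000451). IND was lower in every library on both days. The difference was called at day 10 (log2 fold change -1.11, edgeR adjusted p = 0.0268, and -0.98 without IND replicate 2) and at day 12 (-1.16, edgeR adjusted p = 0.0172). By day 14 the groups overlapped, with 6.94, 5.98 and 10.3 FPKM in CTRL and 6.94, 4.66 and 8 FPKM in IND (log2 fold change -0.23 ± 0.28 (SE), edgeR adjusted p = 0.709). The day 10 call was kept only without IND replicate 2, and the other libraries left out gave edgeR adjusted p between 0.0872 and 0.171. The day 12 call was lost without any 1 of the 3 CTRL libraries (edgeR adjusted p between 0.061 and 0.0683).

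SLIT3 (chr5:168661733-169301129), a second secreted ROBO ligand, measured 1.53, 1.1 and 1.42 FPKM in CTRL and 2.74, 2.1 and 2.85 FPKM in IND at day 6 (log2 fold change 0.93 ± 0.14 (SE), edgeR adjusted p = 0.00104). At day 8 the values were 2.6, 2.19 and 3.38 FPKM and 4.84, 5.04 and 5.87 FPKM (log2 fold change 0.95 ± 0.15 (SE), edgeR adjusted p = 0.00435). From day 10 on the groups overlapped and the log2 fold changes were 0.14 (0.21 without IND replicate 2), 0.01 and 0.47. The ratio of SLIT3 to SLIT2 within a library, taken from FPKM, lay between 0.272 and 0.336 in day 8 CTRL and between 1.22 and 1.70 in day 8 IND. At day 14 it lay between 1.10 and 1.33 in CTRL and between 1.78 and 2.30 in IND. SLIT1 was called higher at day 10 without IND replicate 2 (0.29, edgeR adjusted p = 0.0447) and on no day with all libraries.

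Of the ROBO receptors, ROBO2 was lower and ROBO4 was higher in IND. ROBO2, the SLIT2 receptor of the early kidney, measured 12.5, 13.5 and 12.5 FPKM in day 8 CTRL and 8.57, 8.26 and 7.66 FPKM in day 8 IND (log2 fold change -0.64 ± 0.07 (SE), edgeR adjusted p = 0.000156). It was also called at day 6 (log2 fold change -0.41, edgeR adjusted p = 0.0249), where 4 of the 6 libraries left out gave edgeR adjusted p between 0.0726 and 0.108. At day 10 (-0.87, edgeR adjusted p = 0.0343) only the fit without IND replicate 2 kept the call (log2 fold change -0.77). ROBO1, the most abundant ROBO at 13.7 FPKM on average, was called on no IND day. ROBO3, a divergent ROBO that regulates the response to SLITs, was lower at day 8 (-0.72, edgeR adjusted p = 0.00957, lost at 0.054 without CTRL replicate 1) and at day 14 (-0.79, edgeR adjusted p = 0.0287, kept in 1 of 6 fits with a library left out).

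ROBO4, a ROBO of endothelial cells, was low throughout, and 16.9% of its exonic bases overlap genes on the opposite strand. It measured 0.149, 0.136 and 0.134 FPKM in day 10 CTRL and 0.518, 0.68 and 0.411 FPKM in day 10 IND (log2 fold change 1.94 ± 0.31 (SE), edgeR adjusted p = 0.0339). Without IND replicate 2 the log2 fold change was 1.74, whereas leaving out any other library ended the call (edgeR adjusted p between 0.0885 and 0.221). At day 8 (1.00, edgeR adjusted p = 0.0204) 3 and at day 12 (1.59, edgeR adjusted p = 0.0172) 2 of 6 fits with a library left out kept the call, the others giving edgeR adjusted p between 0.0508 and 0.0996. Of 8 endothelial markers, 1 was called lower and none higher at day 6, and none was called at day 14. The higher calls were 6 at day 8 and 3 at days 10 and 12, and at day 10 the count was 6 without IND replicate 2. Their summed level lay between 39.5 and 47.8 FPKM in day 8 CTRL and between 58.2 and 66.6 FPKM in day 8 IND, with none at the floor in either group. Their part in the ROBO4 result was not tested.

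The 2 neuropilins moved apart. NRP2 (chr2:205681990-205798133), the co-receptor of SEMA3F and other class 3 semaphorins, stood at 14.8, 9.78 and 12 FPKM in day 6 CTRL and 23.6, 22.6 and 22.4 FPKM in day 6 IND (log2 fold change 0.92 ± 0.12 (SE), edgeR adjusted p = 0.000421). At day 8 it measured 10.5, 9.45 and 11 FPKM and 24.3, 21.6 and 24.2 FPKM (log2 fold change 1.18 ± 0.08 (SE), edgeR adjusted p = 7.36e-06). All IND libraries were above all CTRL libraries on both days. The difference was called again at day 14, with 14.5, 12.2 and 15 FPKM in CTRL and 19.3, 20.4 and 19.6 FPKM in IND (log2 fold change 0.52 ± 0.09 (SE), edgeR adjusted p = 0.00299). NRP1 (chr10:33177492-33336262) was lower at day 6, with 13.4, 10.7 and 13.4 FPKM in CTRL and 8.14, 6.82 and 5.96 FPKM in IND (log2 fold change -0.84 ± 0.12 (SE), edgeR adjusted p = 0.000699). Its day 8 difference was small (-0.28, edgeR adjusted p = 0.017) and was lost without CTRL replicate 1, CTRL replicate 3 or IND replicate 2 (edgeR adjusted p = 0.0583, 0.0791 and 0.0807). From day 10 on NRP1 was not called with all libraries, at log2 fold changes of 0.25, 0.41 and 0.29. Without IND replicate 2 it was called higher at day 10 (0.44, edgeR adjusted p = 0.00109).

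Within a library, the ratio of NRP2 to NRP1 lay between 0.893 and 1.10 in day 6 CTRL and between 2.90 and 3.76 in day 6 IND. At day 8 it lay between 0.986 and 1.10 in CTRL and between 2.76 and 3.03 in IND. CTRL then rose to between 1.55 and 1.90 at day 12, where IND lay between 1.41 and 1.64 and the groups overlapped. They also overlapped at day 14, with CTRL between 1.64 and 2.06 and IND between 1.97 and 2.29.

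Among the class 3 semaphorins, the ligands of these co-receptors, SEMA3D and SEMA3A were higher in IND at days 6 and 8. SEMA3D (chr7:84995553-85186855) measured 0.628, 1.23 and 0.804 FPKM in CTRL and 2.04, 2.57 and 3.32 FPKM in IND at day 6 (log2 fold change 1.58 ± 0.25 (SE), edgeR adjusted p = 0.00695). At day 8 the values were 1.17, 1.64 and 0.962 FPKM and 8.02, 5.71 and 3.23 FPKM (log2 fold change 2.17 ± 0.40 (SE), edgeR adjusted p = 0.0262). Every IND library was above every CTRL library, but the day 8 IND libraries differed among themselves by more than the lowest of them differed from CTRL. The day 8 call was lost without CTRL replicate 1, CTRL replicate 3 or IND replicate 2 (edgeR adjusted p = 0.0928, 0.101 and 0.0874), and the day 6 call without CTRL replicate 3 (0.0764). SEMA3A, a repellent that binds NRP1, measured 6.82, 5.9 and 6.46 FPKM in CTRL and 9.61, 8.8 and 9.79 FPKM in IND at day 8 (log2 fold change 0.56 ± 0.08 (SE), edgeR adjusted p = 0.000854). At day 6 its log2 fold change was 0.46 (edgeR adjusted p = 0.0163, 0.074 without IND replicate 2). SEMA3G was called higher at day 8 (0.74, edgeR adjusted p = 0.0188, kept in 2 of 6 fits with a library left out). Without IND replicate 2, SEMA3G and SEMA3A were also higher (0.64 and 0.31, edgeR adjusted p = 0.00924 and 0.00335) and SEMA3E lower (-0.68, edgeR adjusted p = 0.0294) at day 10. SEMA3B, SEMA3C and SEMA3F were called on no day.

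Among the membrane-bound semaphorins, SEMA6D, a ligand of PLXNA1 and PLXNA4, was higher in IND and SEMA5A and SEMA7A were lower. SEMA6D measured 8.52, 7.12 and 8.33 FPKM in day 8 CTRL and 11.3, 11.9 and 13.6 FPKM in day 8 IND (log2 fold change 0.62 ± 0.09 (SE), edgeR adjusted p = 0.00119). It was also called at day 6 (0.54, edgeR adjusted p = 0.00512) and at day 14 (0.70, edgeR adjusted p = 0.0119), the latter lost without CTRL replicate 2 (0.0764) or IND replicate 3 (0.0582). SEMA5A, a semaphorin with thrombospondin repeats, stood at 7.19, 7.12 and 7.46 FPKM in CTRL and 3.27, 3.72 and 3.97 FPKM in IND at day 6 (log2 fold change -0.98 ± 0.10 (SE), edgeR adjusted p = 3.05e-05). It remained lower at day 8 (-0.70, edgeR adjusted p = 0.00838) and had a log2 fold change of 0.23 at day 14 with overlapping groups. SEMA7A, a GPI-anchored ligand of PLXNC1, was lower late, with 10.2, 9.76 and 9.96 FPKM in CTRL and 5.14, 5.5 and 5.58 FPKM in IND at day 12 (log2 fold change -0.86 ± 0.11 (SE), edgeR adjusted p = 0.00411) and 9.4, 9.74 and 11.8 FPKM against 7.07, 7.07 and 7.14 FPKM at day 14 (log2 fold change -0.53 ± 0.11 (SE), edgeR adjusted p = 0.00631). SEMA4B, SEMA4D and SEMA6A were higher at day 8 (log2 fold changes 0.37, 0.58 and 0.72, edgeR adjusted p = 0.0139, 0.0163 and 0.0232), and each was kept in 3 of 6 fits with a library left out. SEMA4D and SEMA6A were also called higher at day 10 without IND replicate 2 (0.33 and 0.62, edgeR adjusted p = 0.0109 and 0.000544).

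The plexin PLXNA4 was the one guidance gene called on all 5 IND days with all libraries, and the netrin receptor UNC5B joined it without day 10 IND replicate 2. PLXNA4 (chr7:132123332-132648688) stood at 0.904, 0.879 and 0.735 FPKM in CTRL and 0.468, 0.344 and 0.282 FPKM in IND at day 6 (log2 fold change -1.20 ± 0.19 (SE), edgeR adjusted p = 0.00107). At day 8 it measured 1.23, 1.38 and 1.59 FPKM and 0.418, 0.509 and 0.456 FPKM (log2 fold change -1.60 ± 0.13 (SE), edgeR adjusted p = 2.48e-05). IND was lower in every library of both days, and the level in IND stayed above that of day 4. At day 12 the values were 1.77, 2.13 and 2.08 FPKM in CTRL and 0.415, 0.514 and 0.505 FPKM in IND (log2 fold change -2.04 ± 0.15 (SE), edgeR adjusted p = 0.000441). At day 14 they were 2.62, 1.69 and 2.28 FPKM and 0.82, 0.997 and 1.1 FPKM (log2 fold change -1.16 ± 0.17 (SE), edgeR adjusted p = 0.00129). These 4 calls were kept whichever library was left out. At day 10 the log2 fold change was -1.45 (edgeR adjusted p = 0.048), the call was lost when any library except IND replicate 2 was left out (edgeR adjusted p between 0.0782 and 0.253), and without IND replicate 2 the log2 fold change was -1.62.

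PLXNA2, a further A-type plexin, changed direction. It measured 29.4, 31.8 and 32.2 FPKM in CTRL and 16.7, 21.7 and 24.5 FPKM in IND at day 8 (log2 fold change -0.57 ± 0.12 (SE), edgeR adjusted p = 0.0153), and its day 6 log2 fold change was -0.51 (edgeR adjusted p = 0.0175). Both early calls were lost with some libraries left out, at edgeR adjusted p between 0.053 and 0.071 (day 6 CTRL replicate 1, IND replicate 2 or IND replicate 3, and day 8 CTRL replicate 3 or IND replicate 2). At day 14 the values were 18.4, 15.4 and 17.8 FPKM in CTRL and 27.8, 31.9 and 30.2 FPKM in IND (log2 fold change 0.81 ± 0.10 (SE), edgeR adjusted p = 0.000156), a call kept whichever library was left out. The IND libraries were thus the lower group on days 6 and 8 and the higher group on day 14. PLXNB3, a receptor of SEMA5A, was lower at day 12 (-1.27, edgeR adjusted p = 0.00776, 0.0519 without CTRL replicate 3). PLXNB2 was lower (-0.27, edgeR adjusted p = 0.0286) and PLXNC1 higher (0.93, edgeR adjusted p = 0.0399) at day 8, each kept in 1 of 6 fits with a library left out, and PLXNA1, PLXNA3, PLXNB1 and PLXND1 were called on no day.

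**Figure D3:**
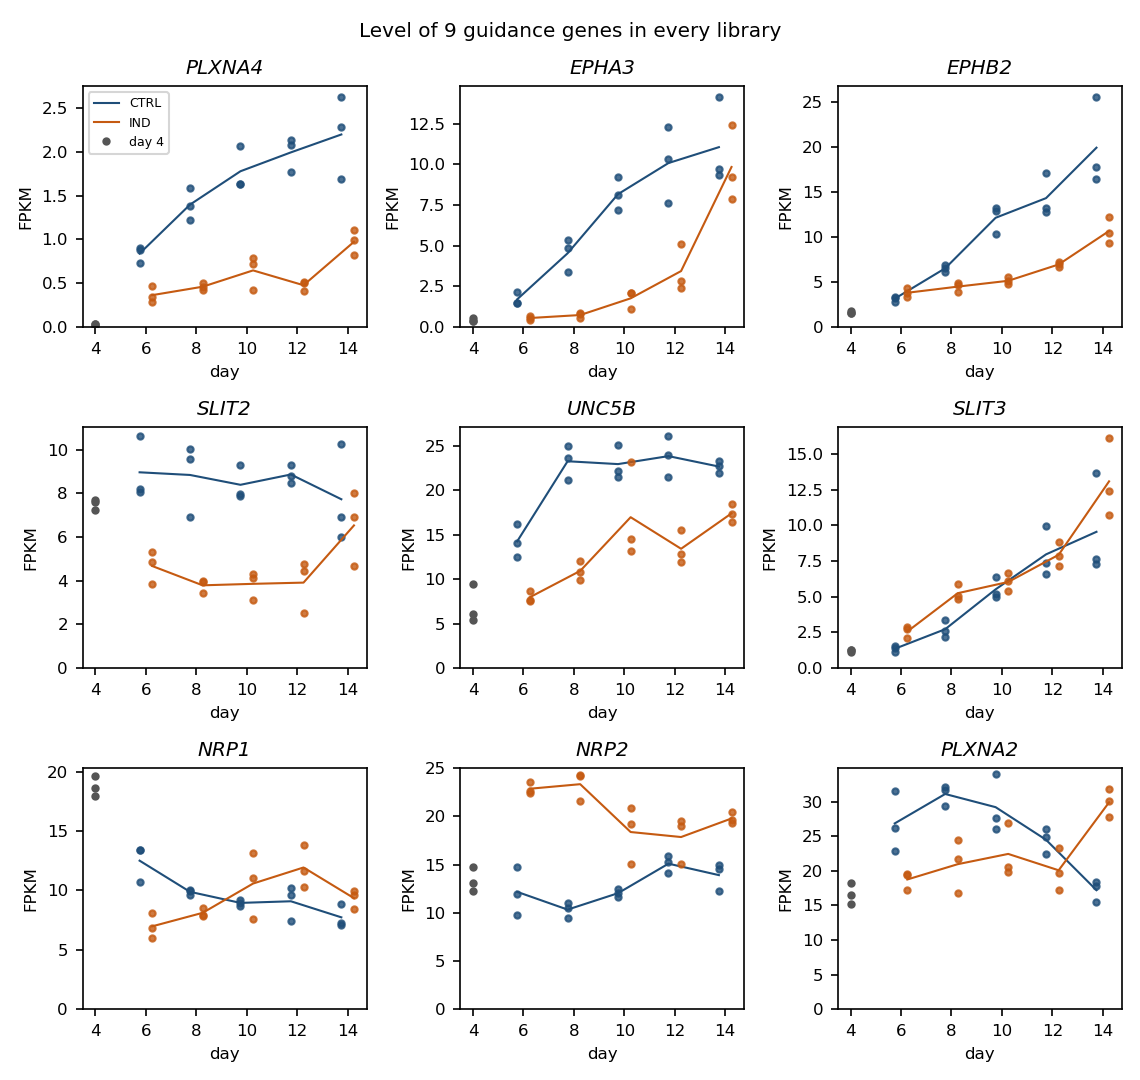
FPKM of 9 guidance genes in every library (points) by day of differentiation, with lines through the group means (grey, day 4; blue, CTRL; orange, IND). PLXNA4 is lower in IND on all 5 days, the EPHA3 and SLIT2 groups overlap again at day 14, and PLXNA2 goes from lower in IND at days 6 and 8 to higher at day 14.

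Of the 14 Eph receptors, EPHA3 and EPHB2 were lower in IND on 4 days each, at different times. EPHA3 (chr3:89107524-89482134) stood at 1.47, 1.47 and 2.18 FPKM in CTRL and 0.659, 0.459 and 0.554 FPKM in IND at day 6 (log2 fold change -1.61 ± 0.21 (SE), edgeR adjusted p = 0.000216). At day 8 it measured 4.85, 3.37 and 5.38 FPKM and 0.569, 0.794 and 0.859 FPKM (log2 fold change -2.61 ± 0.21 (SE), edgeR adjusted p = 9.74e-05), the largest fall among the members tested on that day. IND libraries were below all CTRL libraries on both days. At day 12 IND replicate 3 lay higher than the other two, with 12.3, 10.3 and 7.6 FPKM in CTRL and 2.39, 2.84 and 5.1 FPKM in IND (log2 fold change -1.54 ± 0.29 (SE), edgeR adjusted p = 0.0183). At day 14 the groups overlapped, with 9.35, 9.7 and 14.1 FPKM and 9.25, 7.85 and 12.4 FPKM (log2 fold change -0.15 ± 0.22 (SE), edgeR adjusted p = 0.762). The day 10 difference (-2.19, edgeR adjusted p = 0.0165, and -1.95 without IND replicate 2) was lost when any other library was left out (edgeR adjusted p between 0.0695 and 0.131). The day 12 call was lost without CTRL replicates 1 or 2 or IND replicates 1 or 2 (edgeR adjusted p between 0.0614 and 0.133).

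EPHB2 (chr1:22710839-22921500) was not called at day 6, where the groups stood at 3.36, 3.25 and 2.83 FPKM in CTRL and 3.73, 3.35 and 4.34 FPKM in IND (log2 fold change 0.28 ± 0.12 (SE), edgeR adjusted p = 0.267). The day 8 levels were 6.09, 6.53 and 6.94 FPKM and 4.88, 4.71 and 3.88 FPKM (log2 fold change -0.54 ± 0.09 (SE), edgeR adjusted p = 0.00329). At day 12 the values were 17, 12.7 and 13.2 FPKM and 6.63, 7.18 and 7.02 FPKM (log2 fold change -1.02 ± 0.13 (SE), edgeR adjusted p = 0.00455). All IND libraries were below all CTRL libraries on both days. The day 14 difference (-0.89, edgeR adjusted p = 0.0185) was lost without IND replicate 1 (0.0571) or IND replicate 2 (0.0592). The day 10 difference (-1.23, edgeR adjusted p = 0.0112, and -1.19 without IND replicate 2) was lost without CTRL replicate 1 or 2 or IND replicate 1 or 3 (edgeR adjusted p between 0.0561 and 0.119).

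The remaining Eph receptors that were called moved by less or at low levels. EPHA5 and EPHA10, which were at or near the floor in the early groups, were lower in IND at day 14. EPHA5 measured 0.629, 0.788 and 0.527 FPKM in CTRL and 0.172, 0.114 and 0.205 FPKM in IND (log2 fold change -1.97 ± 0.26 (SE), edgeR adjusted p = 0.000351). EPHA10 measured 0.139, 0.117 and 0.0756 FPKM and 0.0113, 0.015 and 0.0285 FPKM (log2 fold change -2.51 ± 0.51 (SE), edgeR adjusted p = 0.00695, 0.0542 without CTRL replicate 1). EPHA6 was higher in IND, with 0.597, 0.733 and 0.797 FPKM in CTRL and 1.57, 1.64 and 1.8 FPKM in IND at day 14 (log2 fold change 1.25 ± 0.17 (SE), edgeR adjusted p = 0.000474) and a log2 fold change of 1.05 at day 8 (edgeR adjusted p = 0.00251). EPHA2, a receptor common on epithelia, was lower at day 14 (-0.55, edgeR adjusted p = 0.00252) and at day 8 (-0.46, edgeR adjusted p = 0.0211, kept in 3 of 6 fits with a library left out). EPHB6, which lacks kinase activity, was higher at day 8 (0.67, edgeR adjusted p = 0.00178), as was EPHB4 (0.31, edgeR adjusted p = 0.0249, kept in 2 of 6). The log2 fold change of EPHA1 was 1.80, 1.55 and 1.47 at days 8, 10 and 12 (1.20 at day 10 without IND replicate 2), but it was called on no day, with or without that library. Its IND libraries lay between 1.68 and 6.34 FPKM at day 8.

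Of the 8 ephrins, 1 was called at day 6 (3.66% of all genes), 1 at day 8 (14.2%), none at days 10 and 12 and 2 at day 14 (8.43%). Without IND replicate 2, EFNB3 was called at day 10. EFNB2, the ephrin-B ligand of EPHB4, was lower at day 14, with 32.9, 29.4 and 37 FPKM in CTRL and 22, 23.8 and 22.3 FPKM in IND (log2 fold change -0.53 ± 0.09 (SE), edgeR adjusted p = 0.00278), and 26.2% of its exonic bases are shared with a gene on the opposite strand. Its day 6 call (-0.37, edgeR adjusted p = 0.0484) was lost whichever library was left out, at edgeR adjusted p between 0.0512 and 0.310. EFNA5, an ephrin-A ligand of EPHA3, was lower at day 14 (-0.37, edgeR adjusted p = 0.0317, kept in 1 of 6), and EFNB3 at day 8 (-0.39, edgeR adjusted p = 0.0385, kept in 1 of 6). EFNA1, EFNA2, EFNA3, EFNA4 and EFNB1 were called on no day. EFNA1 had a log2 fold change of 0.59 at day 12 (edgeR adjusted p = 0.0532).

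In the netrin system the UNC5 receptors moved and the ligands mostly did not. UNC5B (chr10:71212570-71302864), a repulsive netrin receptor, stood at 16.2, 14 and 12.5 FPKM in CTRL and 7.7, 8.68 and 7.49 FPKM in IND at day 6 (log2 fold change -0.83 ± 0.11 (SE), edgeR adjusted p = 0.000328). Day 8 levels were 21.1, 23.7 and 25 FPKM and 9.86, 12.1 and 10.8 FPKM (log2 fold change -1.09 ± 0.09 (SE), edgeR adjusted p = 2.91e-05). IND lay below CTRL in every library on both days. At day 10 the IND values were 14.5, 23.2 and 13.2 FPKM, so replicate 2 reached the level of CTRL (25.1, 21.5 and 22.2 FPKM) and the difference was not called (log2 fold change -0.43 ± 0.22 (SE), edgeR adjusted p = 0.426). Without that replicate the log2 fold change was -0.72 (edgeR adjusted p = 3.23e-05). The day 12 call (-0.81, edgeR adjusted p = 0.0111) was lost without CTRL replicate 2 (0.0541) or CTRL replicate 3 (0.0651), and the day 14 call (-0.37, edgeR adjusted p = 0.0108) without CTRL replicate 1 (0.053), IND replicate 1 (0.0601) or IND replicate 3 (0.0569).

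UNC5D measured 2.97, 2.61 and 2.99 FPKM in CTRL and 1.43, 1.56 and 1.44 FPKM in IND at day 6 (log2 fold change -0.94 ± 0.12 (SE), edgeR adjusted p = 0.000196). It was also lower at day 8 (-0.81, edgeR adjusted p = 0.00337) and at day 12 (-0.94, edgeR adjusted p = 0.0276, kept in 2 of 6 fits with a library left out). UNC5C was lower at day 8 only (-0.50, edgeR adjusted p = 0.00686). UNC5A, expressed at under 1 FPKM, was higher at day 8, with 0.207, 0.191 and 0.213 FPKM in CTRL and 0.634, 0.816 and 0.535 FPKM in IND (log2 fold change 1.70 ± 0.25 (SE), edgeR adjusted p = 0.00126). At day 12 it was lower (-1.09, edgeR adjusted p = 0.0433), a call kept in 2 of 6 fits with a library left out. NTN1, the ligand of DCC and UNC5 receptors, was higher at day 14 (0.42, edgeR adjusted p = 0.0228, kept in 2 of 6). NTN3 and NTN4 were called on no day. DCC and NTN5 were called on no day with all libraries, and were lower at day 10 without IND replicate 2 (-0.64 and -0.89, edgeR adjusted p = 0.038 and 0.00504). The log2 fold change of DCC at day 12 was -1.02 (edgeR adjusted p = 0.206).

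Whether the effect of induction depended on the day was tested with the interaction of day and induction over the 30 CTRL and IND libraries. It was called for 12 of the members, against 2.38% of all genes, and for 16 without day 10 IND replicate 2 (4.38% of all genes). The 12 comprise 6 Eph and UNC5 receptors (EPHA3, EPHA5, EPHB2, EPHB6, UNC5A and UNC5D), both neuropilins, PLXNA2 and 3 semaphorins (SEMA3E, SEMA3G and SEMA5A). EPHA3 and SEMA5A were lower early and overlapped CTRL at day 14, whereas EPHB2 was not called at day 6 and was lower from day 8 on. PLXNA4, lower on every day, was not among them. SEMA3E was called on no single day with all libraries. Its log2 fold change was 0.73 and 0.51 at days 6 and 8, and -0.92, -0.75 and -0.52 at days 10 to 14. At day 10 it was -0.68 without IND replicate 2, where it was called.

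Day 10 was the day on which 1 library decided most. Replicate 2 of day 10 IND was the highest of its group for 33 and the lowest for 32 of 68 members. The matching shares of all genes were not computed, so these counts describe the library and no trait of the members. All 6 members called with 3 IND libraries (EPHA3, EPHB2, PLXNA4, ROBO2, ROBO4 and SLIT2) were also called among the 28 without replicate 2. The other 22 comprised 11 higher and 11 lower members. Besides those with values given elsewhere, EPHA6, SEMA3D, SEMA6D and EPHB6 were higher (log2 fold changes 1.37, 1.12, 0.94 and 0.41). EPHA5, SEMA7A, ROBO3, UNC5D, EPHA2 and EFNB3 were lower (-1.96, -0.86, -0.64, -0.52, -0.42 and -0.24). Of the 28, 20 (71.4%) were called in the same direction at day 8, as were 1907 of the 3768 genes (50.6%) called at day 10 without replicate 2, and this difference in share was not tested. For NRP2 the log2 fold change was 0.62 with and 0.74 without this library (edgeR adjusted p = 0.0952 and 4.37e-06), and for SEMA6B, at 32.9, 75.6 and 32.3 FPKM in day 10 IND, it was 0.34 with and -0.19 without it (edgeR adjusted p = 0.637 and 0.0478), the only member called without replicate 2 whose sign differed between the 2 fits.

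Markers of neurons and of neural crest and glia were also lower in IND. The 10 neuron markers summed to 130.1 to 225 FPKM in day 14 CTRL and 55.7 to 75.4 FPKM in day 14 IND, where 8 were called lower and none was at the floor. At day 6 their sums were 7.35 to 7.80 FPKM in CTRL and 6.10 to 7.67 FPKM in IND, and none of the 9 tested was called. At day 8 they were 15.1 to 21.5 FPKM in CTRL and 12.4 to 14.0 FPKM in IND, with 6 called lower and 1 higher. At day 10, 4 were called lower (7 lower and 1 higher without IND replicate 2) and at day 12, 7. The 6 neural crest and glia markers summed to 39.2 to 56.6 FPKM in day 6 CTRL and 19.8 to 28.2 FPKM in day 6 IND, with 3 called lower, and to 116 to 199.7 FPKM and 66.6 to 78.2 FPKM at day 14, with 4 called lower. Of these 6, 3 were called lower at day 8, none at day 10 (3 without IND replicate 2) and 2 at day 12. Of the 9 markers of coelomic epithelium and mesothelium, 1 was called higher and 2 lower at day 6. The lower calls were 5 at day 8, 3 at day 10 (5 without IND replicate 2), and 4 at days 12 and 14. Their sums overlapped at day 8, at 326 to 445 FPKM in CTRL and 308 to 445 FPKM in IND. At day 14 they were 321 to 452 FPKM in CTRL and 242 to 266 FPKM in IND. The part of these lists in the guidance gene results was not tested.

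A list of 46 other genes of the same pathways, such as effectors and co-receptors, was examined in the same way. At day 6, 1 of 45 tested was higher and 6 were lower in IND, against 1.29% and 2.37% of all genes. At day 8, 7 of 46 were higher and 6 lower, against 7.49% and 6.67%. At day 10 the calls were 0 higher and 4 lower, against 0.856% and 1.18%, and without IND replicate 2 they were 6 and 13, against 8.74% and 9.51%. At days 12 and 14 there was 1 higher call each (2.38% and 3.21% of all genes), and the lower calls numbered 4 and 6 (3.04% and 5.22%). L1CAM, an adhesion molecule that partners NRP1 in SEMA3A signalling, was lower on all 5 days, with a log2 fold change of -2.07 at day 8 (edgeR adjusted p = 2.34e-05) and -1.19 at day 14 (edgeR adjusted p = 5.76e-06). CRMP1, a cytoplasmic mediator of the class 3 semaphorin response, was also lower on all 5 days, with log2 fold changes from -0.52 at day 6 to -1.27 at day 14. FLRT1 and FLRT2, ligands of UNC5 receptors, were lower at days 6, 8 and 12, and FLRT1 also at day 10, their day 8 log2 fold changes being -0.95 and -0.98. SDC2, a syndecan that EPHB2 phosphorylates, was higher at days 8, 12 and 14 (0.39, 0.57 and 0.76). ABLIM3 was called higher at days 6 and 8, and RGMA, SRGAP1, NGEF, FES and VAV3 at day 8. The higher calls at day 10 without IND replicate 2 were SDC2, RGMA, FES, CHL1, VAV3 and ABLIM3. In CTRL against day 4, 19 of the 46 were higher and 7 lower at day 14, against 24.6% and 22.9% of all genes.

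The 32 members called on no IND day with all libraries were 20 ligands and 12 receptors, and DCC, NTN5, SEMA3E, SEMA6B and SLIT1 among them were called at day 10 without IND replicate 2. Their log2 fold changes lay between -1.02 and 1.80 over the 5 days, and for 17 of them no day exceeded 0.5 in either direction. Among them, 11 were also called on no day of CTRL against day 4, namely EFNA2, EFNA3, EFNA4, EPHA8, EPHB3, NTN4, PLXNA1, PLXNB1, SEMA3C, SEMA4C and SEMA4G. The other 21 were called on at least 1 CTRL day and include EFNA1, EPHB1, EPHA4, SLIT1, DCC and SEMA6B.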

How the data were processed

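The data are bulk poly(A) RNA-seq of 33 non-directional, paired-end libraries in 11 groups of 3 technical replicates. Per the labels and the methods of the study, the authors had reads trimmed with fastp 0.23.2, mapped to GRCh38 with HISAT2 2.0.5 and assigned to genes with featureCounts 1.5.0-p3. The deposited counts are fragments per gene without normalization. The deposited FPKM are the counts scaled to gene length and library size by the authors, and they were used for printed levels and ratios only. Gene lengths of all 69 members equalled those of GENCODE 29.

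Counts were tested with edgeR 4.0.16 in R 4.3.3 (filterByExpr, TMM, robust quasi-likelihood test, Benjamini-Hochberg adjustment over all tested genes, threshold 0.05). Each comparison used its own 6 libraries, and the interaction used 30. Members at 3 counts or fewer in each library of a group were taken to be at the floor, which covers counting error only. Libraries within a group varied beyond counting error (chi-square per gene between 7.82 and 245.9 over 33 pairs).

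Alternatives tried were RLE size factors, DESeq2 1.42.0, a mean of at least 50 counts, no filter, 1 fit over all 33 libraries, limma-trend (limma 3.58.1) on log2(FPKM + 1) and log2(FPKM + 0.1), a replicate block and each library left out. The edgeR test with and without a replicate block, DESeq2 and limma-trend on log2(FPKM + 1) were checked on simulated data. The simulations copied the designs of day 6 IND against CTRL and of the interaction, with 1 dispersion for all genes. They did not cover the other alternatives or a divergent library. The genes named are the members called on an IND day, the 8 largest called rises and 8 largest falls at day 14 of CTRL (average log2 CPM of at least 1), the highest members by family and further members whose counts or values the text turns on, chosen after their values were seen. The members, the marker lists and the list of other pathway genes were chosen with earlier results of these data known. Upstream sequences came from RefSeq (GRCh38.p14), with 59 members matched by symbol. IND against day 4 was not analysed here.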

Additional observations from a re-analysis of the deposited data

Results flagged for a closer look

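The effect of induction differed between days for 12 guidance genes, by the interaction of day and induction in the quasi-likelihood test of edgeR over all genes. The adjusted p (Benjamini-Hochberg) was 0.000343 for EPHB2, 0.000372 for PLXNA2, 0.00151 for UNC5A, 0.00229 for NRP1, 0.00256 for EPHA3 and 0.00717 for SEMA5A. It was 0.0133 for SEMA3G, 0.0179 for SEMA3E, 0.0190 for NRP2, 0.0324 for EPHA5, 0.0390 for UNC5D and 0.0423 for EPHB6. Leaving out each of the 30 libraries in turn kept 8 of the 12 calls in every fit. NRP2 was lost without day 8 CTRL replicate 2 (edgeR adjusted p = 0.053). EPHA5 was kept in 20, EPHB6 in 11 and UNC5D in 10 of the 30 fits, with edgeR adjusted p of up to 0.161, 0.116 and 0.206.

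PLXNA2 went from 29.4, 31.8 and 32.2 FPKM in day 8 CTRL and 16.7, 21.7 and 24.5 FPKM in day 8 IND to 18.4, 15.4 and 17.8 FPKM in day 14 CTRL and 27.8, 31.9 and 30.2 FPKM in day 14 IND. For UNC5A the log2 fold change was 1.70 at day 8 and -1.09 at day 12, at levels under 1 FPKM in all libraries. For SEMA3G it was 0.74 at day 8 and -0.63 at day 14. For UNC5D it was -0.94 at day 6 and 0.35 at day 14, where day 14 CTRL replicate 3 stood at 5.44 FPKM against 2.92 and 2.67 FPKM in its replicates.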

How the results depend on the processing

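No alternative reversed the direction of a called guidance gene. With RLE size factors all 290 calls were kept, and DESeq2 lost 1 of 290. The fit over all 33 libraries lost 31 of 278, limma-trend on log2(FPKM + 1) lost 26 of 290 and on log2(FPKM + 0.1) 21 of 278, no filter 7 of 290, and a mean of at least 50 counts 3 of 279. Single libraries left out lost 287 of 2028. The number of members called moved by over 1.5 times in these cases, and the cause was not tested. At day 10 IND it went from 6 to 21 in the fit over all libraries, 13 with DESeq2 and 0 to 28 with 1 library left out. At day 12 IND it went from 10 to 17 with DESeq2, 16 without a filter and 4 to 19 with 1 library left out. At day 14 IND it went from 15 to 8 in the fit over all libraries, 25 without a filter and 10 to 23 with 1 library left out, and at day 8 IND from 30 to between 17 and 42. The interaction went from 12 to 25 without a filter. Leaving out the filter shifted the median of all genes by 0.12 to 0.24 log2 in CTRL against day 4 at days 8 to 14.

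The replicate numbers did not pair the libraries. The correlation of deviations of same-numbered libraries lay between -0.107 and 0.0781 over 15 IND and CTRL pairs and between -0.109 and 0.138 over 15 CTRL and day 4 pairs, and 11 of 30 and 10 of 30 libraries correlated best with their own number. A replicate block lost 15 of 290 calls and gave 0 calls at day 10 IND, where 6 stood without it. With the block, 16, 13 and 20 members were called at day 6, 12 and 14 IND, against 15, 10 and 15 without it. At day 8 IND 30 were called either way.

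With 3 technical replicates of 1 differentiation of 1 clone, the tests do not cover variation between differentiations or clones. At day 14, members such as EPHA10, at under 0.14 FPKM, rest on few counts.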
